A study of Arabidopsis thaliana with 5 samples.

Results

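The set described here holds 75 nuclear genes of Arabidopsis thaliana whose transcripts had a level 2-fold or more higher in low-Mg roots than in high-Mg roots both after 4 d and after 7 d of treatment. They were chosen from 16678 nuclear genes (identifiers AT1G to AT5G) that reached 5 FPKM in at least 1 of the 4 Mg libraries, out of 33559 loci in the deposited table. FPKM is the number of fragments on a transcript, scaled to its length in kilobases and to the library size. A gene was taken when log2((low Mg FPKM + 1)/(high Mg FPKM + 1)) was 1 or more on both days, so the ratios of low to high Mg chose the members and are given as a description, with no test. The rule did not use the control library, the comparison of the days within a Mg level, the positions of the genes or their upstream sequence.

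RNA was prepared from roots of 5-week-old plants, labelled Col-1, that were grown with a 10-h day and then kept on a low or a high Mg supply. Low Mg stood for 0.5 µM and high Mg for 10 mM, each sampled at 4 d and at 7 d, and a control whose Mg level is not in the labels was sampled at 4 d. Each group is 1 library, so no value below has a replicate error, and no p-value can be given. The series concerns Mg availability and root hair development. A control at 7 d was not analysed here.

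Magnesium sits at the centre of chlorophyll, is the usual partner of ATP in enzyme reactions and stabilises ribosomes. Roots take it up and store it largely in vacuoles, where its handling is tied to that of calcium through shared exchangers and calcium sensor kinases. Several families met in this set are known from other work in plant defence and in the cell wall: PR-1-like secreted proteins, germin-like proteins, extensins, inhibitors of fungal pectinases, and cytochromes P450 that make antimicrobial indole compounds. W-boxes, short sites that WRKY transcription factors bind, occur upstream of many defence genes.

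The libraries differed in size and composition. From the spacing of the lowest values, the 4-d libraries were estimated at 12.8 M fragments for low Mg, 11.6 M for high Mg and 10.5 M for the control, and the 7-d libraries at 6.53 M for low Mg and 10.8 M for high Mg. At these sizes 5 FPKM on a transcript of 1 kb stands for between 32.6 and 63.8 fragments. A single locus, AT2G01021, took 75.7% of the summed FPKM of the low-Mg library, 57.7% of the high-Mg library and 82.4% of the control at 4 d. At 7 d it took 18.5% of the low-Mg and 15.6% of the high-Mg sum. Orders of the 5 libraries given below for single genes are in deposited FPKM. They set 7-d libraries beside a 4-d control and were not recomputed under other scalings. All 12 root tissue markers on a list covering the hair cell, endodermis, stele and meristem passed the 5 FPKM filter, and 0 of 10 shoot photosynthesis markers did, with summed levels of those 10 between 4.37 and 10.3 FPKM.

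The 250 bases before the annotated gene start are shown for 4 members, because they range from 0 to 3 W-box matches: CYP82C2 held the most, AT5G38930 and AT5G38910 are neighbouring copies of which 1 held a match, and PGIP1 belongs to the members whose control level was nearer to high than to low Mg. Sequences were read from the RefSeq genome TAIR10.1, 5′ to 3′ on the strand of the gene. Capitals mark TTGACC or TTGACT (the W-box searched here), or GGTCAA or AGTCAA, the same letters on the other strand.
CYP82C2, chr4:15462100-15462349, plus strand: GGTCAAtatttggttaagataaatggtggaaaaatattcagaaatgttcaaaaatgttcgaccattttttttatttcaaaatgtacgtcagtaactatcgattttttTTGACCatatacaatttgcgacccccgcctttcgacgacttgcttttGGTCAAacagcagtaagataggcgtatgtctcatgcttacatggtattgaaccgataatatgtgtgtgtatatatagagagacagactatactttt
AT5G38930, chr5:15584778-15585027, plus strand: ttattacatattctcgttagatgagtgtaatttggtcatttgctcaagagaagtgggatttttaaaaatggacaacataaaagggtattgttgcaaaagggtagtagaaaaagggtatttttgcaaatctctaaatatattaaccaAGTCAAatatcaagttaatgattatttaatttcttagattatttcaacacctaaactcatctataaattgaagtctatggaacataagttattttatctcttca
AT5G38910, chr5:15578499-15578748, plus strand: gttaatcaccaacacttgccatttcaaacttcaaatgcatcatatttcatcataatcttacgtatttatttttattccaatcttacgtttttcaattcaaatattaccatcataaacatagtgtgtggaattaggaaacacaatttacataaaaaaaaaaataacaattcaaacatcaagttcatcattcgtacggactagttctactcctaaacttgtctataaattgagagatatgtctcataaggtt
PGIP1, chr5:2132100-2132349, plus strand: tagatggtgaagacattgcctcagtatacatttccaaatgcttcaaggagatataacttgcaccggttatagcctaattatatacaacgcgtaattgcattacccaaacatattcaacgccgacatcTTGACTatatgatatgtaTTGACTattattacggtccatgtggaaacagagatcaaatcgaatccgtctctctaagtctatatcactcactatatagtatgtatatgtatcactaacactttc

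Genes of this kind were a small share of the genes compared. At 4 d 600 genes, 3.6% of those compared, were 2-fold or more higher in low than in high Mg, and at 7 d 427 genes, 2.56%, were. The 75 members, 0.45% of the genes compared, make up 12.5% of the 4-d list and 17.6% of the 7-d list. Another 525 genes reached 2-fold at 4 d and not at 7 d, 352 reached it at 7 d and not at 4 d, and 100 genes of the 4-d list were 2-fold or more lower in low Mg at 7 d. The median member had 20.5 FPKM in low Mg and 3.02 FPKM in high Mg at 4 d. At 7 d it had 14.6 FPKM in low Mg and 2.46 FPKM in high Mg, and the 4-d control had 15.9 FPKM. The median of all genes compared lay between 17.8 and 20.0 FPKM in every library. These are levels in whole roots, in which fewer cells of a type and less RNA per cell cannot be told apart.

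**Figure D1:**
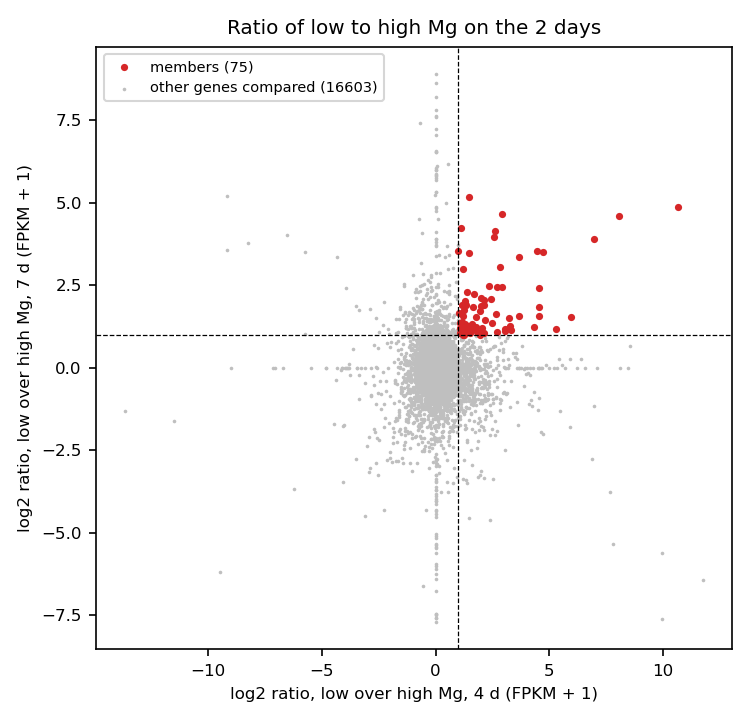
Log2 ratio of low to high Mg at 4 d (x axis) against the same ratio at 7 d (y axis), for 75 members in red and the other genes compared in grey, with dashed lines at the threshold of 1. The members fill the upper right corner by the rule that chose them, and 48 of the 75 have their larger ratio at 4 d.

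Of the 75 members, 71 are annotated as protein coding in TAIR10.1, and in 58 of these the exons add up to 500 nt or more. The other 17 are 13 coding genes below that length, the microRNA precursor gene MIR171b, 1 transcribed pseudogene (AT1G75394) and 2 identifiers without an entry in TAIR10.1 (AT1G63560 and AT5G57310). Short genes reach a given FPKM from fewer fragments than long genes. The genes described singly are therefore mostly among these 58, while counts below cover all 75 members unless another number is given. Products given as uncharacterized or hypothetical made up 26.0% of the members found in the annotation and 6.55% of all genes compared. Many of these members are coding genes below 500 nt, among them AT5G10336, AT5G17847 and AT2G46567. The 2 shares were not set against each other for longer genes alone. Members listed at 0 numbered 0 in both low-Mg libraries, 9 in the 4-d and 10 in the 7-d high-Mg library, and 6 in the control. A gene at 0 in low Mg cannot meet the rule, so the count there was fixed by it. Where fragments could be estimated, for 59 members, counts under 10 fragments were met in 1 member in low Mg and 14 in high Mg at 4 d. At 7 d they were met in 0 members in low Mg and 15 in high Mg. Because the rule asks for the higher level in low Mg, nothing is read from these differences.

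**Figure D2:**
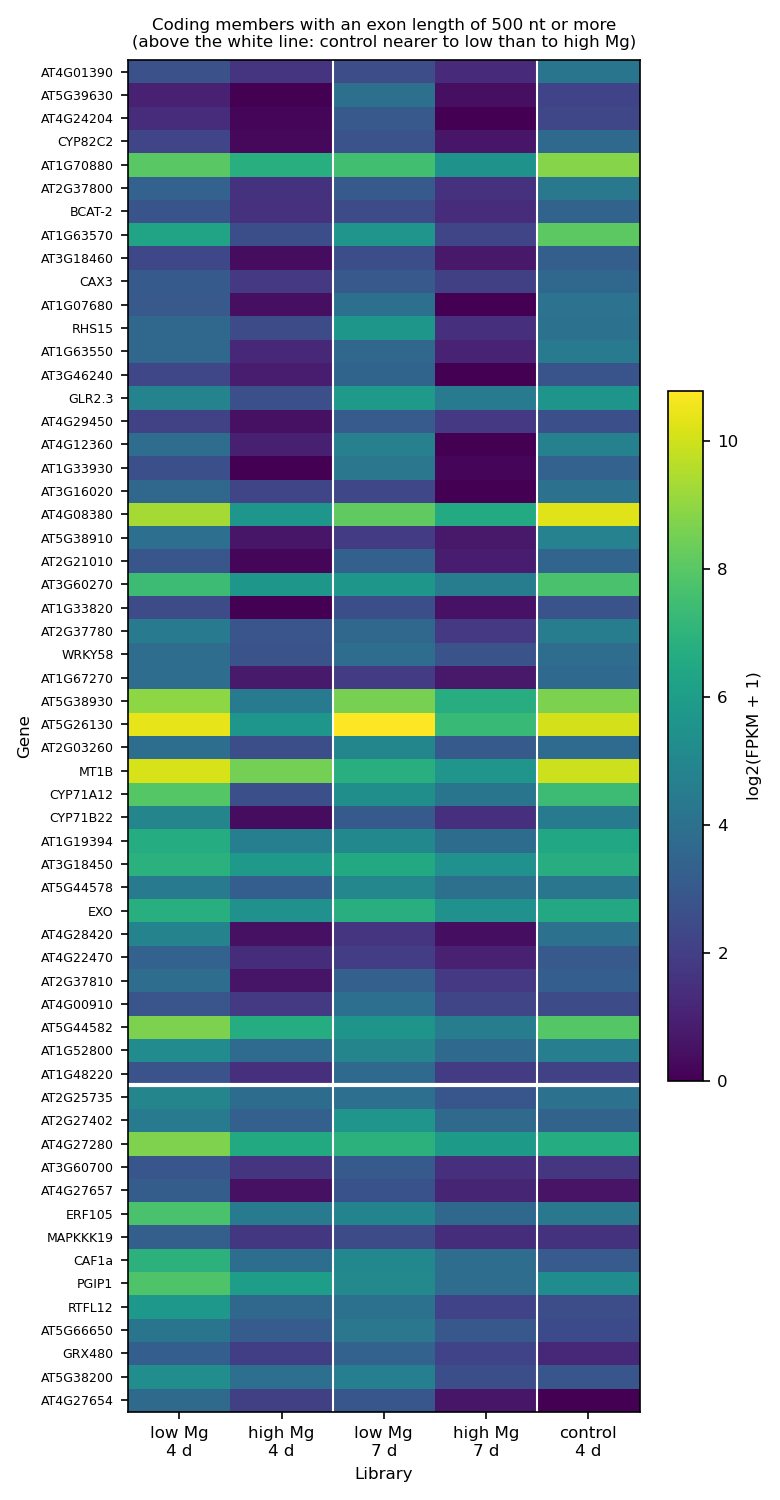
Level of the 58 coding members whose exons add up to 500 nt or more (rows) in each of the 5 libraries (columns), as log2(FPKM + 1), ordered by where the control lies between high and low Mg. The 44 genes above the white line have a control level nearer to low Mg, and the 14 below it a control level nearer to high Mg.

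Genes of secreted and cell wall proteins were among the most abundant of the longer members. AT5G26130 (chr5:9128110-9128610), which encodes a secreted protein of the CAP superfamily to which PR-1 belongs, had 1347 FPKM in low Mg and 49.97 FPKM in high Mg at 4 d. At 7 d it had 1759 FPKM in low Mg and 154 FPKM in high Mg, and the 4-d control had 1079 FPKM. The log2 ratio of low to high Mg was 4.72 at 4 d and 3.51 at 7 d, and both low-Mg libraries lay above the control and both high-Mg libraries below it. These levels correspond to an estimated 8604 and 290 fragments in low and high Mg at 4 d. Of 13 CAP family genes compared, 2 were higher and 4 lower in low Mg at 4 d, 5 were higher and 1 lower at 7 d, and AT5G26130 was the single one higher on both days.

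AT4G08380, a proline-rich extensin-like gene, encodes a structural glycoprotein of the wall. It had 650.1 FPKM in low Mg and 49.4 FPKM in high Mg at 4 d. Its levels at 7 d were 285 FPKM in low Mg and 94.9 FPKM in high Mg, against 1226 FPKM in the 4-d control. The log2 ratio was 3.69 at 4 d and 1.58 at 7 d. Here the control lay above all 4 Mg libraries, and at 4 d low Mg was lower than the control by a log2 ratio of -0.91. EXO, whose product EXORDIUM is an extracellular protein linked to cell expansion, stood apart for its steady levels, with 105.9 FPKM in low Mg and 42.6 FPKM in high Mg at 4 d. After 7 d low Mg gave 107.9 FPKM and high Mg 42.4 FPKM, and the 4-d control stood at 90.6 FPKM. PGIP1 encodes a wall protein that inhibits fungal polygalacturonases. It had 222 FPKM in low Mg and 63.1 FPKM in high Mg at 4 d. At 7 d it had 33.2 FPKM in low Mg and 13.4 FPKM in high Mg, and the 4-d control had 37.2 FPKM. Its low-Mg level at 7 d lay below its high-Mg level at 4 d, so the 2 Mg levels overlap for PGIP1 when the days are pooled. That was the case for 8 of the 75 members. For the other 67, both low-Mg libraries lay above both high-Mg libraries, as in 1182 (7.09%) of the genes compared. These are the 4 libraries that chose the members, so nothing is read from that count.

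AT1G70880, whose product belongs to a superfamily of small lipid-transport and polyketide cyclase proteins, was among the 5 longer members with the highest mean FPKM over the 5 libraries, with AT5G26130, AT4G08380, MT1B and AT5G38930. It had 260.4 FPKM in low Mg and 107.05 FPKM in high Mg at 4 d. Its levels at 7 d were 180.3 FPKM in low Mg and 45.5 FPKM in high Mg, against 450.2 FPKM in the 4-d control. As for AT4G08380, the control was the highest of the 5 libraries in deposited FPKM. AT3G60270 encodes a cupredoxin, a copper protein of a family found at the cell surface. It had 167 FPKM in low Mg and 51.4 FPKM in high Mg at 4 d. After 7 d low Mg gave 50.6 FPKM and high Mg 21.9 FPKM, and the 4-d control stood at 202 FPKM. Of 11 cupredoxins compared, 2 were higher and 0 lower in low Mg at 4 d, 1 was higher and 1 lower at 7 d, and AT3G60270 was the single one higher on both days.

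Germin-like proteins are secreted cupins, some of which have oxidase or superoxide dismutase activity. AT5G38930 had 492 FPKM in low Mg and 19.9 FPKM in high Mg at 4 d. At 7 d it had 376 FPKM in low Mg and 105.0 FPKM in high Mg, and the 4-d control had 401 FPKM. Its log2 ratio was 4.56 at 4 d and 1.83 at 7 d. AT5G38910, on the same strand a few kilobases away, had 14.5 FPKM in low Mg and 0.564 FPKM in high Mg at 4 d. Its levels at 7 d were 2.70 FPKM in low Mg and 0.660 FPKM in high Mg, against 26.2 FPKM in the 4-d control. The order of the 4-d libraries was low Mg, control, high Mg for AT5G38930 and control, low Mg, high Mg for AT5G38910. The next gene, AT5G38940, is no member: it had 2006 FPKM in low Mg and 1146 FPKM in high Mg at 4 d, and 824 FPKM in low Mg and 630.4 FPKM in high Mg at 7 d. Of 18 cupins of this annotation compared, 3 were higher and 0 lower in low Mg at 4 d, 4 were higher and 5 lower at 7 d, and 2 were higher on both days.

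Receptor-like protein kinase-related proteins of chromosome 1 gave another pair. AT1G63570 had 76.5 FPKM in low Mg and 5.09 FPKM in high Mg at 4 d. After 7 d low Mg gave 47.6 FPKM and high Mg 3.77 FPKM, and the 4-d control stood at 265 FPKM. The log2 ratio of low to high Mg was 3.67 at 4 d and 3.35 at 7 d, while low Mg at 4 d was below the control by a log2 ratio of -1.78. AT1G63550 followed the same order, with 11.3 FPKM in low Mg and 1.38 FPKM in high Mg at 4 d. At 7 d it had 10.9 FPKM in low Mg and 1.12 FPKM in high Mg, and the 4-d control had 21.2 FPKM. AT1G63560, numbered between them and without an entry in TAIR10.1, had 12.5 FPKM in low Mg and 0.773 FPKM in high Mg at 4 d. Its levels at 7 d were 5.76 FPKM in low Mg and 0.234 FPKM in high Mg, against 56.2 FPKM in the 4-d control. Of 10 genes of this annotation compared, 4 were higher and 0 lower in low Mg at 4 d, 2 were higher and 2 lower at 7 d, and AT1G63550 and AT1G63570 were the 2 higher on both days. For all 3 genes given here the control was the highest of the 5 libraries.

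Cytochromes P450 are haem enzymes of specialised metabolism. CYP71A12, which acts on indole-3-acetaldoxime on the way to camalexin and to the defence compound 4-hydroxyindole-3-carbonyl nitrile, had 246 FPKM in low Mg and 5.27 FPKM in high Mg at 4 d. By 7 d it had 40.3 FPKM in low Mg and 17.2 FPKM in high Mg, and the 4-d control had 167 FPKM. Its log2 ratio of 5.30 at 4 d was above those of the other longer members, and its ratio at 7 d was 1.19. CYP82C2, the hydroxylase that ends the same nitrile pathway, was a low gene with 3.71 FPKM in low Mg and 0.161 FPKM in high Mg at 4 d. After 7 d low Mg gave 5.78 FPKM and high Mg 0.560 FPKM, and the 4-d control stood at 11.96 FPKM. Its high-Mg level at 4 d stands for an estimated 3.4 fragments. FOX1, the oxidase between these 2 enzymes, is no member: it had 64.3 FPKM in low Mg and 3.43 FPKM in high Mg at 4 d, and 4.51 FPKM in low Mg and 4.63 FPKM in high Mg at 7 d. CYP71B22 had 28.7 FPKM in low Mg and 0.277 FPKM in high Mg at 4 d. By 7 d it had 7.35 FPKM in low Mg and 1.81 FPKM in high Mg, and the 4-d control had 20.1 FPKM. CYP71A12 shares 90.4% of its coding bases with CYP71A13, so fragments of the 2 could be split or shared by the counting. Among 117 P450 genes compared, 16 were higher in low Mg at 4 d and 10 lower, 7 were higher and 14 lower at 7 d, and these 3 were higher on both days.

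Members that bind or move ions included both calcium and metal handling genes. MT1B encodes a metallothionein, a small cysteine-rich metal-binding protein. It had 1114 FPKM in low Mg and 364 FPKM in high Mg at 4 d, 110.4 FPKM in low Mg and 48.4 FPKM in high Mg at 7 d, and 990.5 FPKM in the control, so its days differed more than its Mg levels. CAX3, a vacuolar exchanger that moves calcium against protons, had 7.41 FPKM in low Mg and 2.49 FPKM in high Mg at 4 d. Its levels at 7 d were 7.14 FPKM in low Mg and 3.06 FPKM in high Mg, against 11.5 FPKM in the 4-d control. Its log2 ratio was 1.27 at 4 d and 1.00 at 7 d, at the edge of the rule. Of 20 genes compared for Mg transport and vacuolar storage, CAX3 was the single one higher on both days, and its relative CAX1 was higher at 7 d, with 24.1 FPKM in low Mg and 7.48 FPKM in high Mg. In that list 1 gene was higher and 1 lower at 4 d, and 2 were higher and 1 lower at 7 d. Of the MRS2 family of Mg channels 0 genes are members, where 0.45% of all genes compared are. GLR2.3, a glutamate receptor-like channel, had 27.3 FPKM in low Mg and 5.24 FPKM in high Mg at 4 d. After 7 d low Mg gave 56.6 FPKM and high Mg 20.2 FPKM, and the 4-d control stood at 46.8 FPKM.

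AT4G27280 encodes a small calcium-binding EF-hand protein. It had 408 FPKM in low Mg and 92.4 FPKM in high Mg at 4 d, 120.4 FPKM in low Mg and 57.0 FPKM in high Mg at 7 d, and 100.5 FPKM in the control, so that low Mg at 4 d stood apart from the other 4 libraries. AT5G66650, of the calcium uniporter family, had 17.4 FPKM in low Mg and 7.70 FPKM in high Mg at 4 d, 18.3 FPKM in low Mg and 6.52 FPKM in high Mg at 7 d, and 4.38 FPKM in the control, the lowest of the 5. AT4G00910, of the aluminium-activated malate transporter family, had 6.09 FPKM in low Mg and 2.52 FPKM in high Mg at 4 d. By 7 d it had 14.1 FPKM in low Mg and 3.80 FPKM in high Mg, and the 4-d control had 4.51 FPKM.

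Of the 6 regulatory genes given next, 5 had a control nearer to high than to low Mg, as had 20 of all 75 members. The 6 are a choice, some of them named after their values were seen, and do not cover all regulatory members. The protein kinase genes AT4G29450 and AT1G48220 had a control nearer to low than to high Mg, or above low Mg. So did the zinc-finger gene AT1G67270 and the RING/U-box gene AT4G24204. Nothing is therefore read from this count about regulatory genes as a class. ERF105 (AT5G51190), an AP2/ERF transcription factor of the ethylene response factor family, had 204 FPKM in low Mg and 20.7 FPKM in high Mg at 4 d. Its levels at 7 d were 28.2 FPKM in low Mg and 11.6 FPKM in high Mg, against 18.6 FPKM in the 4-d control. CAF1a, a deadenylase subunit of the CCR4-NOT complex that shortens mRNA tails, had 122 FPKM in low Mg and 13.9 FPKM in high Mg at 4 d. After 7 d low Mg gave 31.7 FPKM and high Mg 13.6 FPKM, and the 4-d control stood at 7.65 FPKM. RTFL12, which encodes a small peptide of the ROTUNDIFOLIA-like family, had 53.3 FPKM in low Mg and 11.4 FPKM in high Mg at 4 d, 15.8 FPKM in low Mg and 3.44 FPKM in high Mg at 7 d, and 4.79 FPKM in the control. In these 3 genes low Mg at 4 d exceeded each of the other 4 libraries by more than 3-fold, and the log2 ratio of low Mg at 4 d to the control was 3.39 for ERF105, 3.83 for CAF1a and 3.23 for RTFL12. MAPKKK19, a protein kinase at the head of a MAP kinase cascade, and GRX480, a glutaredoxin that binds TGA transcription factors, were low throughout. MAPKKK19 had 8.54 FPKM in low Mg and 2.33 FPKM in high Mg at 4 d, 4.53 FPKM in low Mg and 1.66 FPKM in high Mg at 7 d, and 2.01 FPKM in the control. GRX480 had 8.23 FPKM in low Mg and 3.02 FPKM in high Mg at 4 d, 9.51 FPKM in low Mg and 3.49 FPKM in high Mg at 7 d, and 1.34 FPKM in the control. WRKY58 was the WRKY factor in the set and, unlike the genes just named, matched the control in low Mg: it had 13.5 FPKM in low Mg and 5.70 FPKM in high Mg at 4 d, 13.4 FPKM in low Mg and 5.74 FPKM in high Mg at 7 d, and 13.7 FPKM in the control.

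RHS15 (AT4G25220, annotated G3Pp2), a root hair specific gene whose product belongs to a family of glycerol-3-phosphate transporters, had 11.0 FPKM in low Mg and 4.61 FPKM in high Mg at 4 d, 51.9 FPKM in low Mg and 1.79 FPKM in high Mg at 7 d, and 15.3 FPKM in the control. The log2 ratio of low to high Mg was 1.101 at 4 d and 4.25 at 7 d. Of 16 root hair genes compared, RHS15 was the 1 that was higher in low Mg at 4 d, while 6 were lower at 4 d and 10 were higher at 7 d. EXPA7, a root hair expansin, shows the more frequent order of that list, with 35.9 FPKM in low Mg and 70.3 FPKM in high Mg at 4 d, against 53.0 FPKM in low Mg and 19.4 FPKM in high Mg at 7 d.

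Some members were at or near 0 in high Mg. AT1G33930, a P-loop nucleoside triphosphatase, had 5.14 FPKM in low Mg and was listed at 0 in high Mg at 4 d, had 18.4 FPKM in low Mg and 0.095 FPKM in high Mg at 7 d, and had 9.61 FPKM in the control. Its neighbour PP2-A4, a short and lectin-like gene of the phloem protein 2 family, had 18.9 FPKM in low Mg and 1.79 FPKM in high Mg at 4 d, had 7.26 FPKM in low Mg and was listed at 0 in high Mg at 7 d, and had 20.4 FPKM in the control. AT4G12360, of the lipid-transfer protein superfamily, had 13.4 FPKM in low Mg and 0.930 FPKM in high Mg at 4 d, had 24.6 FPKM in low Mg and was listed at 0 in high Mg at 7 d, and had 25.8 FPKM in the control. In all 3 genes both low-Mg libraries and the control lay above both high-Mg libraries. AT1G07680, AT1G33820 and AT2G21010 showed that order as well, with 7.07, 4.46 and 6.43 FPKM in low Mg at 4 d, 14.6, 5.10 and 8.86 FPKM in low Mg at 7 d, and no more than 0.811 FPKM in a high-Mg library. AT2G21010 encodes a lipid-binding protein with a calcium-dependent C2 domain, and AT1G07680 and AT1G33820 are uncharacterized. AT4G28420, of the tyrosine transaminase family, had 26.9 FPKM in low Mg and 0.380 FPKM in high Mg at 4 d, 2.09 FPKM in low Mg and 0.301 FPKM in high Mg at 7 d, and 15.2 FPKM in the control. At 7 d its low-Mg level stood for an estimated 22.4 fragments.

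Further longer members belong to families of metabolism, transport and signalling. BCAT-2, a branched-chain amino acid transaminase, had 5.93 FPKM in low Mg and 1.93 FPKM in high Mg at 4 d, 4.62 FPKM in low Mg and 1.59 FPKM in high Mg at 7 d, and 9.83 FPKM in the control. AT2G03260, which carries the EXS domain of phosphate exporters, had 13.9 FPKM in low Mg and 4.98 FPKM in high Mg at 4 d, 30.1 FPKM in low Mg and 7.34 FPKM in high Mg at 7 d, and 12.7 FPKM in the control. AT5G38200, a glutamine amidotransferase-like gene, had 37.6 FPKM in low Mg and 14.5 FPKM in high Mg at 4 d, 23.9 FPKM in low Mg and 5.08 FPKM in high Mg at 7 d, and 6.47 FPKM in the control. AT3G46240, a carbohydrate-binding protein gene, had 3.88 FPKM in low Mg and 0.748 FPKM in high Mg at 4 d, had 10.2 FPKM in low Mg and was listed at 0 in high Mg at 7 d, and had 6.06 FPKM in the control. AT4G01390, a TRAF-like gene, had 5.43 FPKM in low Mg and 2.05 FPKM in high Mg at 4 d, 4.85 FPKM in low Mg and 1.54 FPKM in high Mg at 7 d, and 17.2 FPKM in the control. AT5G39630, a v-SNARE of vesicle transport, had 1.0005 FPKM in low Mg and was listed at 0 in high Mg at 4 d, and had 14.9 FPKM in low Mg and 0.365 FPKM in high Mg at 7 d. The low-Mg value at 4 d stands for an estimated 8 fragments. In AT2G03260 both low-Mg libraries exceeded the control, and in BCAT-2 and AT4G01390 neither did. Another 11 longer members, among them the protein kinase genes AT4G29450 and AT1G48220, the oxygenase gene AT1G52800 and 4 genes of uncharacterized or hypothetical product, had log2 ratios of low to high Mg between 1.096 and 3.05 at 4 d and between 1.05 and 3.0037 at 7 d. The last value belongs to AT4G24204, listed at 0 in high Mg at 7 d. Their median level was 13.5 FPKM in low Mg and 3.72 FPKM in high Mg at 4 d, and 11.9 FPKM in low Mg and 2.78 FPKM in high Mg at 7 d.

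Among the short or unlisted members, MIR171b had 1414 FPKM in low Mg and 514 FPKM in high Mg at 4 d, 34.9 FPKM in low Mg at 7 d, and was listed at 0 in high Mg at 7 d and in the control. Fragments were not estimated for a precursor of this length, so how many its values rest on is not known. A log2 ratio against a library listed at 0 depends on the pseudocount of 1 FPKM and is no measure of a fold. The 17 short or non-coding members had a median of 47.1 FPKM in low Mg and 1.15 FPKM in high Mg at 4 d, 19.3 FPKM in low Mg and 0.693 FPKM in high Mg at 7 d, and 25.8 FPKM in the control. AT2G46567, a short coding gene that shares bases with 2 other annotated genes, had 2986 FPKM in low Mg and 1072 FPKM in high Mg at 4 d, the highest levels of the set, and 131 FPKM in low Mg and 54.2 FPKM in high Mg at 7 d. Whether the libraries kept strand information is not given in the sources used here. Another annotated gene overlaps 16 of the located members, or 21.9%, and 31.7% of the genes compared. Of the members, BCAT-2, PGIP1, ERF105, MAPKKK19, AT5G66650 and AT4G00910 are among those that have a partner on the other strand.

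The control was not used to choose the members, although the low-Mg and high-Mg libraries it is set against here were. On the log2(FPKM + 1) scale at 4 d, the control lay nearer to low than to high Mg, or at or above low Mg, in 55 of the 75 members (73.3%). The same held for 317 of the 525 genes (60.4%) that were higher in low Mg at 4 d and not at 7 d, and for 55.8% of all genes compared. In 34 members (45.3%) the control was at or above low Mg, against 118 (22.5%) of the 525. For this count the share over all genes compared was not taken. Set in fold, high Mg was at least 2-fold lower than the control in 50 members (66.7%), in 271 (51.6%) of the 525 and in 3.18% of all genes compared. Low Mg was at least 2-fold higher than the control in 21 members (28%), in 168 (32%) of the 525 and in 2.19% of all genes compared. Of the 58 longer coding members, 13 were 2-fold higher in low Mg than in the control and 39 were 2-fold lower in high Mg. In 7 members low Mg was at least 2-fold lower than the control (1.16% of genes compared), and in 6 high Mg was at least 2-fold higher (2.56%). Both sets were picked on the same 4-d libraries, and both ratios share the control library.

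The 55 members with a control near low Mg had a median of 14.5 FPKM in low Mg and 2.00 FPKM in high Mg at 4 d, 14.1 FPKM in low Mg and 1.86 FPKM in high Mg at 7 d, and 20.45 FPKM in the control. The other 20 had a median of 33.3 FPKM in low Mg and 8.97 FPKM in high Mg at 4 d, 19.7 FPKM in low Mg and 4.27 FPKM in high Mg at 7 d, and 3.32 FPKM in the control. The groups were cut at the midpoint between high and low Mg at 4 d, so the order of their 4-d libraries follows from that cut and the rule. By it, high Mg stood below both low Mg and the control in the larger group. In the smaller group low Mg stood above both high Mg and the control. To the larger group belong AT5G26130, AT5G38930, AT1G63570, AT4G08380, MT1B, the 3 cytochromes P450, CAX3 and RHS15, and to the smaller group ERF105, CAF1a, RTFL12, PGIP1, AT4G27280, MAPKKK19, GRX480 and AT5G66650. The lowest of the longer members in low Mg against the control were AT1G63570, AT4G01390 at -1.501, CYP82C2 at -1.46, AT5G39630 at -1.15 and AT1G07680 at -1.09. The highest, beside CAF1a, ERF105 and RTFL12, were 2 neighbouring uncharacterized genes. AT4G27654 had 12.3 FPKM in low Mg and 3.12 FPKM in high Mg at 4 d and was listed at 0 in the control, and AT4G27657 had 8.02 FPKM in low Mg, 0.412 FPKM in high Mg and 0.484 FPKM in the control.

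**Figure D3:**
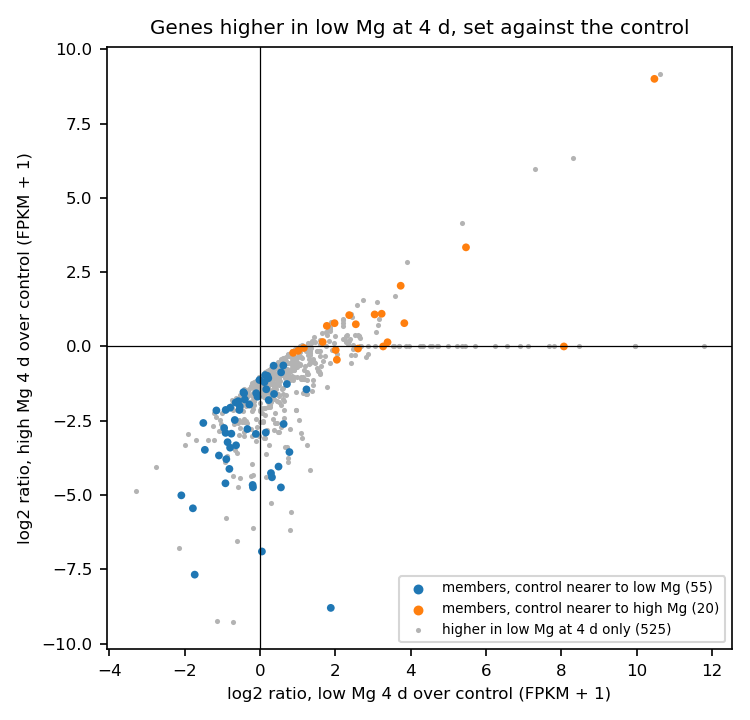
Log2 ratio of low Mg at 4 d to the control (x axis) against that of high Mg at 4 d to the control (y axis), for 55 members with a control nearer to low Mg in blue, 20 members with a control nearer to high Mg in orange, and the 525 genes higher in low Mg at 4 d and not at 7 d in grey. Both axes share the control library, and the row of points at a y value of 0 holds genes listed at 0 in high Mg and the control. The blue points lie below 0 on the y axis by the way they were grouped.

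Within a Mg level, the days were also set against each other. In low Mg 10 members stood 2-fold or more above and 29 stood 2-fold or more below their 4-d level at 7 d, where 4.05% and 12.7% of all genes compared were. In high Mg 9 stood above and 16 below it, where 4.76% and 11.1% of all genes were. Among the 58 longer coding members, 10 stood above and 17 below in low Mg, and 7 above and 11 below in high Mg. The median log2 ratio of 7 d to 4 d over the members was -0.64 in low Mg and -0.09 in high Mg, against -0.15 in low Mg and -0.15 in high Mg over all genes compared. The direction between the days turned with the scaling. With FPKM rescaled to the same sum in each library, 15 of the 33 genes that then met the rule stood above and 4 below in low Mg, and 11 above and 1 below in high Mg. The median log2 ratio of 7 d to 4 d over all genes was then 1.745 in low Mg and 1.171 in high Mg. With AT2G01021 left out of that rescaling, 11 of 73 stood above and 24 below in low Mg, and 10 above and 11 below in high Mg. Because the low-Mg libraries at both days also chose the members, these counts are a description of them. In deposited FPKM, the levels in low Mg of AT5G26130, EXO, WRKY58 and GRX480 were close on the 2 days, while ERF105, CAF1a, PGIP1, MT1B, CYP71A12 and AT4G28420 were 2-fold or more lower in low Mg at 7 d than at 4 d. GLR2.3, RHS15 and AT1G33930 were 2-fold or more higher in low Mg at 7 d. RHS15 was at the same time 2-fold lower in high Mg at 7 d, at the edge of the threshold, a pair of differences met in 45 genes, or 0.27% of those compared. The opposite pair, lower in low Mg and higher in high Mg at 7 d, was met in 3 members, CYP71A12, CYP71B22 and the short gene AT3G04184, and in 95 genes, or 0.57% of those compared.

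Gene lists chosen for this tissue and treatment show how far the members stand for their pathways. Of the genes compared, 3.6% were higher and 1.78% lower in low than in high Mg at 4 d, and 2.56% higher and 3.36% lower at 7 d. Camalexin and indole glucosinolate synthesis had 13 of 27 genes compared higher and 1 lower at 4 d, 2 higher and 4 lower at 7 d, and the 2 higher on both days were CYP71A12 and CYP82C2. Ethylene synthesis and response factors had 10 of 15 higher and 0 lower at 4 d, and 1 higher and 0 lower at 7 d, which was ERF105. Its relatives ERF5, with 74.0 FPKM in low Mg and 19.1 FPKM in high Mg at 4 d, and 23.8 FPKM in both at 7 d, and ERF104, with 212 FPKM in low Mg and 87.5 FPKM in high Mg at 4 d, and 57.6 FPKM in low Mg and 35.0 FPKM in high Mg at 7 d, fell outside the rule.

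Defence WRKY factors, of which the list leaves out WRKY58, had 14 of 26 higher and 0 lower at 4 d, 0 higher and 5 lower at 7 d, and 0 members. Salicylate and pipecolate genes had 11 of 20 higher and 0 lower at 4 d, 0 higher and 5 lower at 7 d, and pattern-triggered immunity genes had 6 of 21 higher and 0 lower at 4 d, 0 higher and 1 lower at 7 d. Calcium-binding and touch genes had 7 of 15 higher and 1 lower at 4 d, and 0 higher and 3 lower at 7 d. Median log2 ratios of low to high Mg for these 4 lists were between 0.62 and 1.06 at 4 d and between -0.83 and -0.20 at 7 d, against -0.02 at 4 d and -0.000693 at 7 d over all genes compared. Of these 4 lists 0 genes are members, where 0.45% of all genes compared are, so nothing is read from that 0. The calcium list leaves out the EF-hand member AT4G27280. Cysteine-rich and wall-associated receptor kinases had 2 of 5 higher at 4 d and 0 at 7 d, tau glutathione transferases had 3 of 21 higher and 4 lower at 4 d and 1 higher and 2 lower at 7 d, and stress and senescence NAC genes had 1 of 11 higher at 4 d and 0 at 7 d. Iron deficiency and storage genes had 0 of 13 higher and 3 lower at 4 d, and 7 higher and 0 lower at 7 d. Root tissue markers had 0 of 12 higher and 1 lower at 4 d, and 2 higher and 0 lower at 7 d. In all, 5 list genes are members: CYP71A12, CYP82C2, ERF105, CAX3 and RHS15.

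Several members lie side by side on the chromosomes. Of the 73 members with a position in TAIR10.1, 10 (13.7%) had a member as the next annotated gene, whereas 0.494% of all genes compared had a member next to them. For the 4-d list the share was 16.0% against 4.04%, and for the 7-d list 11.3% against 2.96%. Allowing 1 gene in between gave 15 members in 7 runs: the germin-like pair AT5G38910 and AT5G38930, the receptor-like kinase related pair AT1G63550 and AT1G63570, PP2-A4 with AT1G33930, the PLAC8 pair AT3G18450 and AT3G18460, the uncharacterized pairs AT4G27654 with AT4G27657 and AT5G44578 with AT5G44582, and 3 genes of the cysteine/histidine-rich C1 domain family. Copies within a run were alike in their coding bases: 83.1% of aligned bases were identical in the germin-like pair, 80.3% in the receptor-like kinase related pair, 85.6% in the PLAC8 pair and between 64.3% and 79.7% among the C1 genes. How the authors' counting treated fragments that fit more than 1 copy is not given in the sources used here.

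The C1 run holds a gene that is no member between 2 that are. Genes beside the other runs differed. Some, such as AT1G33900 and AT4G27652, were higher in low Mg on both days without meeting the rule, and others, such as AT1G63580, were not. AT2G37780 had 21.4 FPKM in low Mg and 6.26 FPKM in high Mg at 4 d, 11.3 FPKM in low Mg and 2.45 FPKM in high Mg at 7 d, and 22.4 FPKM in the control. AT2G37800 had 9.40 FPKM in low Mg and 2.00 FPKM in high Mg at 4 d, 7.38 FPKM in low Mg and 1.86 FPKM in high Mg at 7 d, and 19.1 FPKM in the control. AT2G37810 had 13.3 FPKM in low Mg and 0.517 FPKM in high Mg at 4 d, 8.83 FPKM in low Mg and 2.46 FPKM in high Mg at 7 d, and 8.26 FPKM in the control. Between the first 2 lies AKR4C10, an aldo-keto reductase with 19.8 FPKM in low Mg and 21.9 FPKM in high Mg at 4 d, and 13.0 FPKM in low Mg and 13.8 FPKM in high Mg at 7 d. Of 75 C1 genes compared, 5 were higher and 1 lower in low Mg at 4 d, 5 were higher and 0 lower at 7 d, and these 3 were higher on both days. In the PLAC8 family, of small cysteine-rich proteins, 4 of 15 were higher in low Mg at 4 d, 2 at 7 d and the same 2 on both days: AT3G18450 with 116 FPKM in low Mg and 53.7 FPKM in high Mg at 4 d, and AT3G18460 with 4.09 FPKM in low Mg and 0.275 FPKM in high Mg at 4 d. The families were picked by product name after the members were seen, so these counts describe the set and no more.

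**Figure D4:**
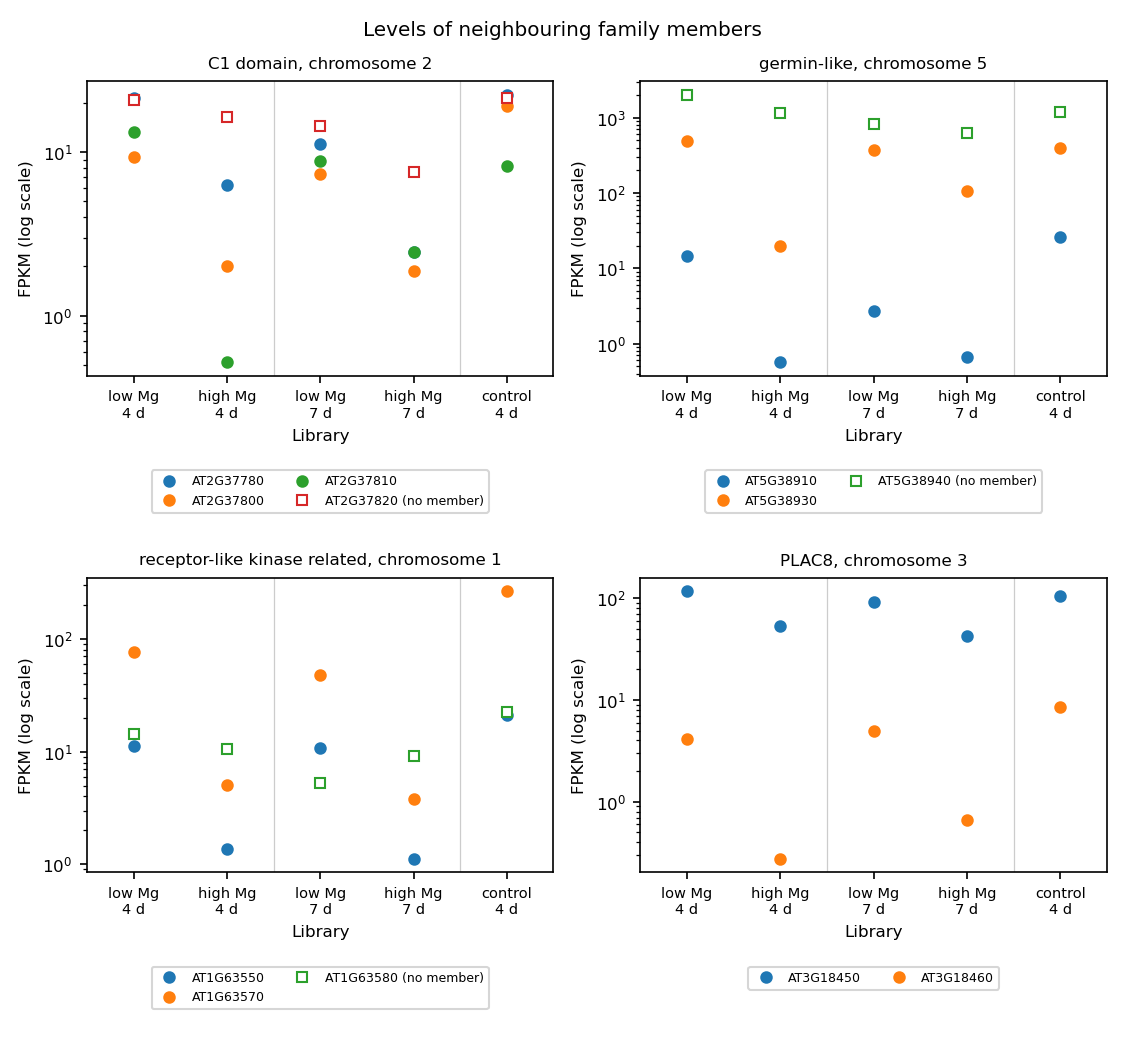
FPKM (log axis) in the 5 libraries for members (filled circles) and other neighbouring family genes (open squares) of 4 runs on chromosomes 1, 2, 3 and 5. In each panel the filled circles stand higher in low than in high Mg on both days, and the squares of AT5G38940 and AT2G37820 do so with smaller ratios, while those of AT1G63580 do not at 7 d.

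Upstream sequence was examined for the 71 coding members. Matches to TTGACC or TTGACT on either strand, in the 250 bases before the gene start, occurred in 25 of 71 members (35.2%), in 50.5% of the 493 coding genes higher in low Mg at 4 d and not at 7 d, in 31.0% of the 303 higher at 7 d and not at 4 d, and in 29.1% of the 16216 coding genes compared. At least 2 matches occurred in 4.23% of members, 18.9% of the genes higher at 4 d and not at 7 d, 6.60% of those higher at 7 d and not at 4 d, and 6.23% of all. The share in the members thus lay nearer to that of all genes than to that of the genes higher at 4 d alone. Members with a control near low Mg held a match in 19 of 53 promoters (35.8%) and those with a control near high Mg in 6 of 18 (33.3%). CYP82C2, shown above, had 3 matches, starting 250, 143 and 96 bases before the gene start, PGIP1 had 2 and AT5G38930 had 1, while AT5G38910, the copy of AT5G38930, had 0.

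The core TTGAC, which includes every W-box match, was found in 52.1% of members and 45.9% of all coding genes compared. The G-box CACGTG, a site of bHLH and bZIP factors, was found in 4 members (5.63%) and in 7.08% of all, with 3 of the 4 among the 18 whose control was near high Mg. The GCC-box GCCGCC, which ethylene response factors bind, was found in 1 member (1.41%) and in 1.94% of all. In 500 bases the G-box was found in 3 of the 18 members with a control near high Mg. It was found there in 5 of the 53 with a control near low Mg and in 9.89% of all. Nothing is read from so few matches. With 500 bases searched, W-box matches were found in 63.4% of members, 66.7% of the genes higher at 4 d and not at 7 d, and 45.95% of all coding genes compared, so that the place of the members between the other sets moved with the length searched. A match is a run of letters in the sequence and does not show that a factor binds there.

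**Figure D5:**
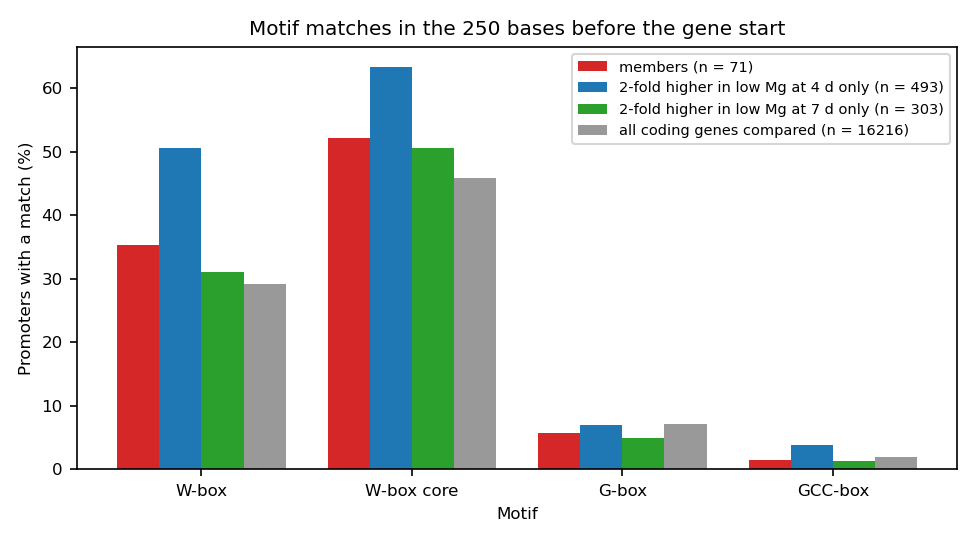
Share of promoters (y axis, percent) with at least 1 match in the 250 bases before the gene start for 4 motifs (x axis), in members, genes higher in low Mg at 4 d alone, genes higher at 7 d alone and all coding genes compared. For the W-box the bars stand at 35.2%, 50.5%, 31.0% and 29.1%, and for the G-box and GCC-box all bars are below 8%.

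The edge of the set follows from the threshold. Just inside it, by the smaller of their 2 daily log2 ratios, were AT5G39630 at 1.0004 (against a high-Mg level listed at 0), CAX3 at 1.0017, AT4G22470 of the lipid-transfer family at 1.0019, AT5G44578 at 1.0043 and AT4G00910 at 1.0122. Just outside were the ethylene synthesis gene ACS2 at 0.9991, AT5G07760 at 0.9971, AT5G04730 at 0.97, the glutathione transferase GSTF3 at 0.97 and the phosphate transporter PHT1;2 at 0.96. ACS2 had 5.66 FPKM in low Mg and 1.77 FPKM in high Mg at 4 d, and 3.602 FPKM in low Mg and 1.303 FPKM in high Mg at 7 d. The number of members depended on the settings: 33 genes remained when FPKM were rescaled to the same sum in each library, 34 with a pseudocount of 5 FPKM and 41 with a filter of 20 FPKM, against 73 with the rescaling done without AT2G01021. The pseudocount stayed at 1 after rescaling. It then weighed more in the 4-d libraries, whose FPKM sums were larger, so the 33 reflects both the rescaling and the pseudocount.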

How the data were processed

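Root RNA-seq from 5 libraries was used, each a group of its own: low Mg and high Mg at 4 d and 7 d, and a control at 4 d. The deposited values are FPKM made by the authors for TAIR10 loci, read as FPKM from the low values and from the submitters' processing notes, since no label names the unit. Per those notes the build was TAIR10 throughout, and TopHat2 2.0.8 with Cufflinks 2.1.1 is named for the 4-d libraries. For the 7-d libraries the aligner and counter, and for all libraries any mutual scaling and the strandedness, are not given in sources used here. Every library's own table was identical to the series table.

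Ratios were log2((a + 1)/(b + 1)) on deposited FPKM, with a pseudocount of 1 FPKM, which understates the change of low genes. The same pseudocount of 1 was added after rescaling to equal sums, where it weighs more in libraries with a larger FPKM sum. Nuclear genes with 5 FPKM or more in at least 1 of the 4 Mg libraries were compared, and a log2 ratio of 1 was the 2-fold threshold. The place of the control is its distance from high Mg divided by the distance of low from high Mg at 4 d, on the log2(FPKM + 1) scale. With 1 library per group no test was run, and no replicate error or interval can be given. The members, gene lists and families were chosen with earlier results of these data known, and symbols of the lists were matched by locus.

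Positions, products and exon lengths come from the RefSeq annotation TAIR10.1, which has an entry for 73 of 75 members and 98.6% of nuclear loci. No coordinates are in the deposited tables. For library sizes, the product of FPKM and exon length was taken in coding genes of 2000 nt or more, and its lowest peak was read as 1 fragment. Fragments were estimated only for exon lengths of 500 nt or more. They are approximate and speak of counting error alone. Promoters are the 250 bases before the TAIR10.1 gene start, searched on both strands. Identity between copies is over aligned coding bases.

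The naming rule took, among coding members of 500 nt or more: list members, the 12 with the largest smaller daily ratio, the 5 highest and 5 lowest in low Mg against the control, the 5 nearest to the threshold on either side and the 5 most abundant. Other members, family genes and neighbours were named after their values were seen. Alternatives covered the pseudocount, the filter, the scaling, gene type, motif and neighbour distance. Software was Python 3.11.15 with pandas 2.3.3, numpy 2.4.6, Biopython 1.88 and matplotlib 3.10.9. The rule was also run on simulated data of longer coding genes with counting error alone. That run checks the code and cannot show the effect of library composition or of spread between samples.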

Additional observations from a re-analysis of the deposited data

Results flagged for a closer look

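In 3 longer coding members the difference between the days ran one way in low Mg and the opposite way in high Mg, by 2-fold or more each on deposited FPKM. With 1 library per group this difference between the Mg levels was not tested. CYP71A12 had a log2 ratio of 7 d to 4 d of -2.58 in low Mg and 1.54 in high Mg. For CYP71B22 the same ratio was -1.83 in low Mg and 1.14 in high Mg, where its 4-d level in high Mg stands for an estimated 5.8 fragments. RHS15 (G3Pp2, AT4G25220) had 2.14 in low Mg and -1.01 in high Mg, the last at the edge of the threshold. Of all genes compared, 0.57% were lower in low Mg and higher in high Mg at 7 d, and 0.27% the other way. Some of the signs depend on the scaling. With FPKM rescaled to the same sum in each library, CYP71A12 kept its signs, with -0.41 in low Mg and 2.65 in high Mg. The sign changed for CYP71B22 in low Mg, with 0.20 there and 1.36 in high Mg. It changed for RHS15 in high Mg, with 3.94 in low Mg and 0.06 in high Mg. With AT2G01021 left out of that rescaling, the ratios in high Mg were 1.96 for CYP71A12, 1.3528 for CYP71B22 and -0.67 for RHS15. The low-Mg ratio stayed below the high-Mg one for both cytochromes P450, and above it for RHS15, under each scaling run.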

How the results depend on the processing

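Of 83 values recomputed under alternatives, 51 were held to be the same and 32 to have moved. Counts were the same when within 1.5 times the main count. W-box shares were the same when inside a counting interval (Wilson) of the main share. The counts are parts of the number of members, so a count can move with that number while its share stays close. In the main run a control nearer to low Mg or above was met in 55 of 75 members. With a pseudocount of 5 FPKM it was met in 25 of 34, and with a filter of 20 FPKM in 29 of 41. After rescaling to equal sums it was met in 23 of 33. A control at or above low Mg was met in 34 of 75 in the main run and in 16 of 34 with a pseudocount of 5 FPKM. Its share was smaller with the filter of 20 FPKM, at 13 of 41, and after rescaling to equal sums, at 11 of 33. The balance between the days turned under that rescaling. With a pseudocount of 0.1 FPKM there were 103 members, among them the 75, and 22 were higher at 7 d in low Mg, 35 lower and 20 higher at 7 d in high Mg. With a pseudocount of 5 FPKM, 34 members remained, of which 25 had a control nearer to low Mg or above and 16 at or above low Mg, 24 were lower in high Mg and 10 higher in low Mg than in the control, 14 were lower and 1 higher at 7 d in low Mg, 6 were lower and 5 higher at 7 d in high Mg, and 1 was a list gene. A filter of 20 FPKM left 41, with 29 nearer to low Mg or above, 13 at or above low Mg, 26 lower in high Mg and 13 higher in low Mg than the control, 4 higher at 7 d in low Mg and 3 list genes. Rescaling to equal sums left 33, with 23 nearer to low Mg or above, 11 at or above low Mg, 22 lower in high Mg and 12 higher in low Mg than the control, 4 lower and 15 higher at 7 d in low Mg, 1 lower and 11 higher at 7 d in high Mg and 2 list genes. That rescaling moved the median log2 ratio over all genes to -0.67 at 4 d and -0.07 at 7 d for low against high Mg, to 0.35 for low Mg and 1.02 for high Mg against the control, and to 1.745 in low Mg and 1.171 in high Mg for 7 d against 4 d. Done without AT2G01021, an alternative added after seeing the data, it gave 73 members, 72 of them shared. Coding genes of 500 nt or more gave 58 members, with 13 higher in low Mg than in the control and 17 lower at 7 d in low Mg. W-box matches were in 52.11% of members with the core TTGAC and in 63.38% with 500 bases, the longer window being added after seeing the data. Median scaling and no filter gave 75 and 81 members. No paired analysis was possible because each group is 1 library. Counting error weighs most on the low genes, and the rule asks for members that are lower in high Mg. The smallest library was low Mg at 7 d, at an estimated 6.53 M fragments.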
